A study of Mus musculus with 4 samples.

Results

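Somatostatin (Sst) interneurons of the mouse primary motor cortex were described from single-nucleus RNA, where they made up 482 of 28619 barcodes. A barcode counted as an Sst nucleus when it had at least 500 detected genes, under 5% mitochondrial UMIs (unique molecular identifiers, each standing for 1 captured RNA molecule), and 2 or more UMIs of Gad1 and Gad2 that outnumbered those of the excitatory genes Slc17a7 and Sv2b. It also needed UMIs from at least 4 of the 8 genes Grin3a, Synpr, Reln, Elfn1, Nxph1, Sox6, Lypd6b and Sst. Grin3a and Sst together had to reach 3 UMIs and not fall below Btbd11 and Tmem132c, which mark parvalbumin interneurons. Finally, Adarb2 was at 2 UMIs or fewer and at most 1 of the striatal genes Rarb, Rgs9, Sh3rf2 and Drd2 was detected. The nuclei were therefore chosen on measured values, and the levels of these genes are given as a description.

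The study holds 4 libraries, 1 per group, all from the primary motor area of C57BL/6N mice, dissected from frozen coronal sections. One group was kept awake by gentle handling (sleep deprivation) and one slept freely without deprivation (ad lib sleep). The remaining groups received a local injection of an adeno-associated virus (AAV8) in which the human synapsin promoter, active in neurons, drives FLAG-tagged SIK3: either SIK3 without exon 13 (Ex13del), which the submitters call a gain-of-function mutant, or wild-type SIK3 (WT). Age, sex, the number of animals behind each library, the length of deprivation and the time since injection are not given in the sources used here. Surgery, virus and added SIK3 come together in both AAV libraries, so these cannot be told apart when either is set against ad lib sleep. With 1 library per group no difference could be tested, and every interval below is a 95% interval that covers counting error only.

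Sst interneurons arise from Lhx6-expressing cells of the medial ganglionic eminence and release GABA together with peptides onto the dendrites of neighbouring neurons. They include Martinotti cells, whose axons climb to layer 1, cells that target layer 4, and rare long-projecting cells with Nos1, Chodl, Npy and the substance P receptor Tacr1, which are known to be active during sleep. SIK3 is a kinase that holds CRTC coactivators and class IIa histone deacetylases in the cytoplasm, and CRTCs work with CREB, the factor whose binding site, the cAMP response element, was first studied in the somatostatin promoter.

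The palindromic cAMP response element, TGACGTCA, is shown here because it links the gene that names these cells to the pathway that SIK3 acts on. In the RefSeq promoter windows of build GRCm38.p6, which run from 250 bases before to 50 bases after each gene start, the element occurred in 588 of 32851 windows (1.79%). Because it is palindromic, 1 search covers both strands. Of 25 genes for neuropeptides and their processing and carriers, 21 had a window and 4 held the element: Sst, Scg2, Chgb and Pcsk1. In the lines that follow, the element is in capitals and the sequence is given 5′ to 3′ on the strand of the gene.
Sst promoter, chr16:23890795-23891094, minus strand: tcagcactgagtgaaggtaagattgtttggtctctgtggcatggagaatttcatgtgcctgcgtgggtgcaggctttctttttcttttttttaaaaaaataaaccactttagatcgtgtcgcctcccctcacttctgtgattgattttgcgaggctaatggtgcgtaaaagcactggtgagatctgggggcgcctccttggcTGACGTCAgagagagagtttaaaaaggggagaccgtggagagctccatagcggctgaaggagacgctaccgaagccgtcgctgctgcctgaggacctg
Scg2 promoter, chr1:79440041-79440140, minus strand: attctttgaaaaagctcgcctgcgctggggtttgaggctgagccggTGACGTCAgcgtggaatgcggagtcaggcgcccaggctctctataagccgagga
Chgb promoter, chr2:132781524-132781623, plus strand: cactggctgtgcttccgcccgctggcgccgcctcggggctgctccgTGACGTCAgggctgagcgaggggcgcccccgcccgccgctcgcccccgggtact
Pcsk1 promoter, chr13:75089733-75089832, plus strand: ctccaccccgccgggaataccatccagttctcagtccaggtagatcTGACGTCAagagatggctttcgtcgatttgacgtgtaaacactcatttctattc

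In these windows the element began 48 bases before the gene start of Sst, 68 before that of Scg2, 72 before that of Chgb and 78 before that of Pcsk1. A match describes letters in a window and is no measurement of binding. The 3 genes beside Sst code for granins (Scg2, secretogranin II, and Chgb, chromogranin B) and for the prohormone convertase that cuts peptide precursors (Pcsk1). Sst itself was at 405 CPM (UMI counts per 1000000 UMIs of the summed Sst nuclei) in sleep deprivation, 475 CPM in Ex13del, 354 CPM in WT and 388 CPM in ad lib sleep. Scg2 was at 85.8 CPM in sleep deprivation, 87.7 in Ex13del, 85.3 in WT and 85.0 in ad lib sleep, and Chgb at 128 CPM in sleep deprivation, 105 in Ex13del, 125 in WT and 119 in ad lib sleep. The intervals of all 3 ratios included 1 for Scg2 and for Chgb. Pcsk1 had 18 UMIs in sleep deprivation, 25 in Ex13del, 24 in WT and 15 in ad lib sleep, too few to compare. The level of Sst, a gene the rule used, was highest in Ex13del and lowest in WT, and no comparison is drawn from it. In sleep deprivation 1 nucleus held 79 of the 481 Sst UMIs.

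Sst nuclei numbered 87 in sleep deprivation, 107 in Ex13del, 128 in WT and 160 in ad lib sleep. As a share of nuclei that passed the Gad1 and Gad2 gate they were 18.0% (14.7 to 21.7) in sleep deprivation, 19.5% (16.3 to 23.1) in Ex13del, 18.0% (15.2 to 21.0) in WT and 18.7% (16.2 to 21.5) in ad lib sleep, so the intervals overlapped. Depth differed: the median nucleus held 13892 UMIs in sleep deprivation, 10216 in Ex13del, 10270 in WT and 8032 in ad lib sleep. Summed over Sst nuclei, each library gave 1186348 to 1376932 UMIs, and a count of 3 UMIs corresponds to 2.18 to 2.53 CPM. The 4 libraries shared 9 to 16 barcodes per pair, none of them among Sst nuclei.

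The genes of the rule were, by its construction, high in the nuclei it chose. Grin3a, a glutamate receptor subunit, was at 928 CPM in sleep deprivation, 979 in Ex13del, 1200 in WT and 1086 in ad lib sleep. Parvalbumin-type nuclei held 28.4 to 38.9 CPM of it. They were picked by a mirrored rule in which Btbd11 and Tmem132c had to outnumber Grin3a and Sst. Their low Grin3a was therefore by construction too. Elfn1, a synaptic protein that sets facilitation of inputs onto Sst cells, was at 246 CPM in sleep deprivation, 144 in Ex13del, 133 in WT and 158 in ad lib sleep, against 7.87 to 11 CPM in parvalbumin-type nuclei. Synpr, a synaptic vesicle protein, ranged over 949 to 1090 CPM, and Nxph1, a neurexin ligand, over 2055 to 2560 CPM. Nxph1 separates types less: parvalbumin-type nuclei held 1652 to 1870 CPM of it, and Adarb2-type nuclei (the Vip, Lamp5 and Sncg interneurons) 1114 to 1475 CPM.

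Sst RNA was not found in every member. Of the 482 nuclei, 62 had 0 Sst UMIs, 167 had 1 or 2, 211 had 3 to 9 and 42 had 10 or more, while 177 had UMIs of all 8 marker genes. For a level to read these against, Sst was at 18.7 to 32.1 CPM in excitatory nuclei, which were not picked on Sst. The part of free RNA in that level was not tested. At the edges of the rule, 26 members had exactly 4 of the 8 markers, while 12 nuclei failed only by having 3. Another 35 members had exactly 3 UMIs of Grin3a and Sst, against 16 nuclei that failed only by having 2. At least 1 UMI of Slc17a7 or Sv2b was present in 217 members, and 213 members held 1 striatal gene.

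**Figure D1:**
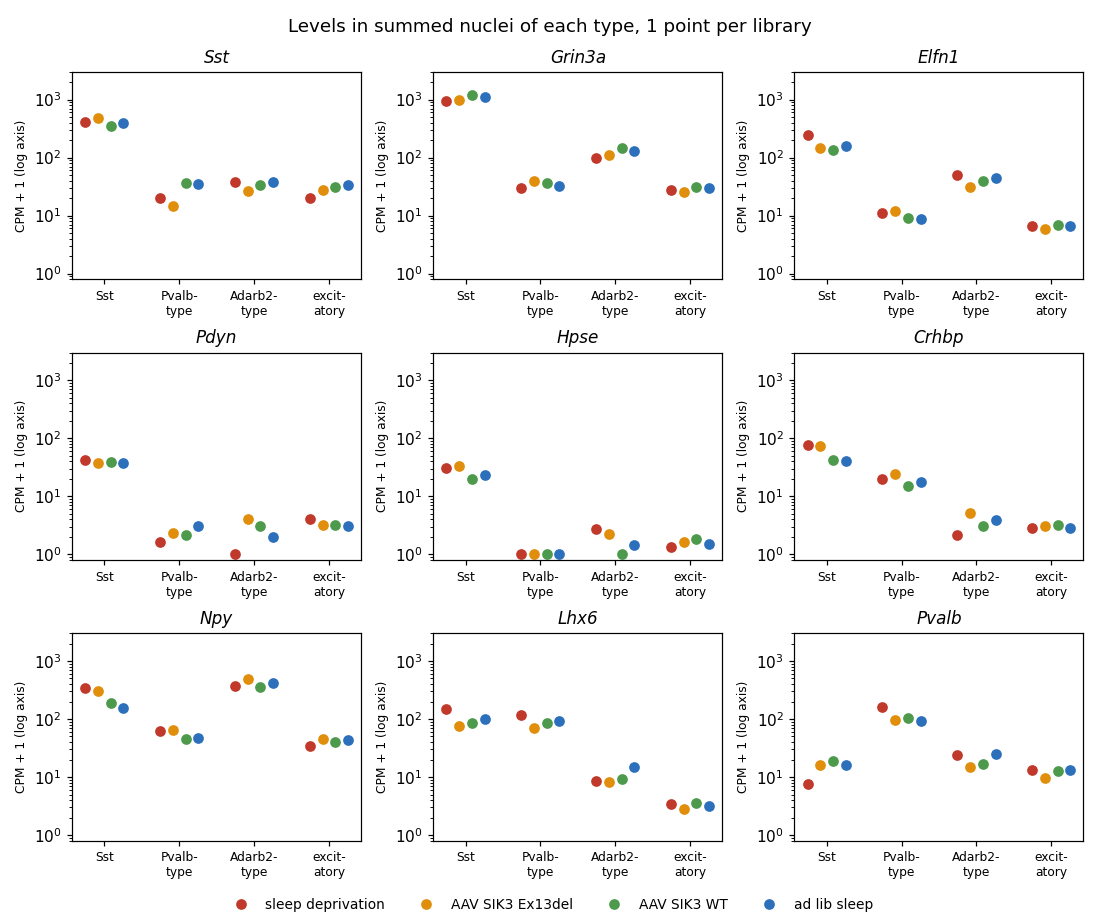
Summed levels of 9 genes (CPM + 1, log axis) in Sst, parvalbumin-type, Adarb2-type and excitatory nuclei, 1 point per library. Sst, Grin3a and Elfn1 were used by the rule; Pdyn and Hpse lie at 19.2 CPM or more in Sst nuclei of all 4 libraries and at 3.12 CPM or less in the other types shown.

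Several genes that the rule did not use were also high in Sst nuclei of every library. Pdyn, the precursor of dynorphin peptides, was at 42.0 CPM in sleep deprivation, 36.2 in Ex13del, 38.4 in WT and 36.3 in ad lib sleep, against at most 3.12 CPM in parvalbumin-type, Adarb2-type and excitatory nuclei. Hpse, a heparan sulfate cleaving enzyme known from Sst cells that target layer 4, was at 30.3 CPM in sleep deprivation, 32.9 in Ex13del, 19.2 in WT and 22.5 in ad lib sleep, and had no UMI in parvalbumin-type nuclei. Both genes thus set Sst nuclei apart without belonging to the rule. The muscarinic receptor gene Chrm3 was at 1319 to 1562 CPM, against 223 to 308 CPM in parvalbumin-type and 523 to 624 CPM in Adarb2-type nuclei. Pam, which amidates peptides, ranged over 854 to 898 CPM in Sst nuclei and 634 to 699 CPM in parvalbumin-type nuclei. The opposite held for Erbb4, the neuregulin receptor, at 755 to 1270 CPM in Sst nuclei and 7961 to 9248 CPM in parvalbumin-type nuclei.

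The genes whose summed level followed Sst most closely over 16 points (Sst, parvalbumin-type, Adarb2-type and remaining GABAergic nuclei in 4 libraries) were Tmcc3 (Spearman rho 0.918), Ildr2 (0.912), Cnksr2 and Pde1a (0.897 each), Dpp10 (0.894), Rrbp1 (0.891), Ralyl (0.882), Ankrd44 (0.871), Abtb2 (0.865) and Ano3 (0.862), out of 3975 genes ranked. Sst is a gene of the rule that split these types, so its spread over the points was partly set by the selection. The points also share libraries and depth, so the values are a description. Tmcc3 was at 313 CPM in sleep deprivation, 269 in Ex13del, 264 in WT and 277 in ad lib sleep, against 25.3 to 67.5 CPM in parvalbumin-type and Adarb2-type nuclei.

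Subtype markers split the Sst nuclei unevenly. Npy had a UMI in 265 of 482 nuclei (55.0%), Calb1 in 48.5%, Crhbp in 30.3%, Moxd1 in 21.2%, Pdyn in 21.0%, Hpse in 14.5%, Nos1 in 11.4%, Calb2 in 5.19% and Chodl in 3.11%. Chrna2 and Myh8, markers of deep Martinotti cells, had a UMI in 2 nuclei each. In parvalbumin-type nuclei the share was 37.8% for Npy, 17.3% for Calb1, 15.6% for Crhbp, 22.4% for Moxd1, 1.54% for Pdyn, 6.84% for Nos1, 0.68% for Calb2 and 0 for Hpse and Chodl, so Moxd1 does not set the Sst nuclei apart from these. With each nucleus thinned to 3000 UMIs, which left out 10 Sst nuclei, the shares among Sst nuclei were 29.0% for Npy, 10.4% for Pdyn, 7.20% for Nos1, 7.20% for Hpse and 1.27% for Chodl.

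**Figure D2:**
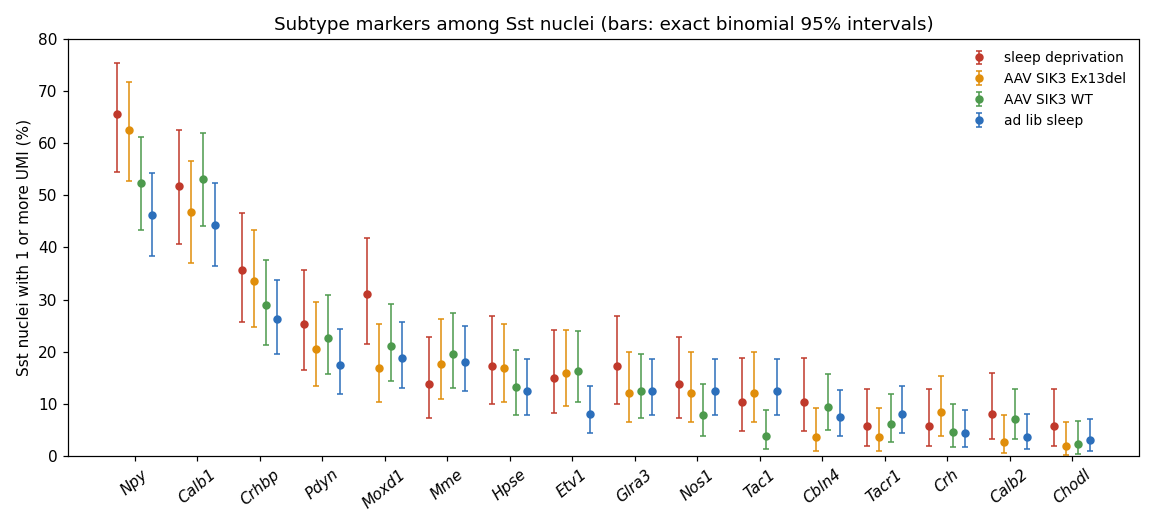
Percentage of Sst nuclei with at least 1 UMI of each subtype marker in 4 libraries; bars are exact binomial 95% intervals, which cover counting error only. The intervals of the libraries overlap for most markers, and depth differs between libraries; Npy was found in 65.5% of nuclei in sleep deprivation and 46.2% in ad lib sleep.

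Markers of the long-projecting type were found in the same nuclei. All 15 nuclei with a Chodl UMI also had Npy, against 53.5% of the nuclei without Chodl, and 14 of the 15 had Nos1. Tacr1 was found in 34.5% of nuclei with Nos1 and 2.58% of those without. The Hpse nuclei overlapped with Pdyn, which was present in 35 of the 70 and in 16% of the rest. Chodl was in 0 of the 70, but it was in only 15 of all 482 nuclei, too few to read an absence from. Calb2 and Calb1, both used for superficial Martinotti cells, were less tied: Calb1 was present in 56.0% of nuclei with Calb2 and 48.1% of nuclei without.

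A small set of nuclei carried most of the Nos1. Nuclei with 5 or more Nos1 UMIs, a limit chosen after the values were seen, numbered 5 of 87 in sleep deprivation, 5 of 107 in Ex13del, 2 of 128 in WT and 6 of 160 in ad lib sleep, or 18 of 482 (3.73%, 2.23 to 5.84). In these 18 nuclei pooled, Nos1 was at 1726 CPM against 10.9 CPM in the other 464, a difference set by the limit itself. Chodl, which the limit did not use, was at 104 CPM against 0.617 CPM. Npy was at 2721 CPM against 140 CPM, Tacr1 at 679 CPM against 3.91 CPM, and the collagen gene Col25a1 at 2229 CPM against 153 CPM. Npy was detected in all 18 and Tacr1 in 17. The 18 nuclei stood apart by absence too: Reln, Hpse and Pdyn had 0 UMIs among their 192910, which allows up to 15.6 CPM (3 counts), while the other 464 held 927 CPM of Reln, 27.0 CPM of Hpse and 39.7 CPM of Pdyn. Reln, a secreted glycoprotein that is 1 of the 8 marker genes of the rule, was found in 389 of those 464 nuclei. The median depths, 8430 UMIs in the 18 nuclei and 9634 UMIs in the others, were close.

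**Figure D3:**
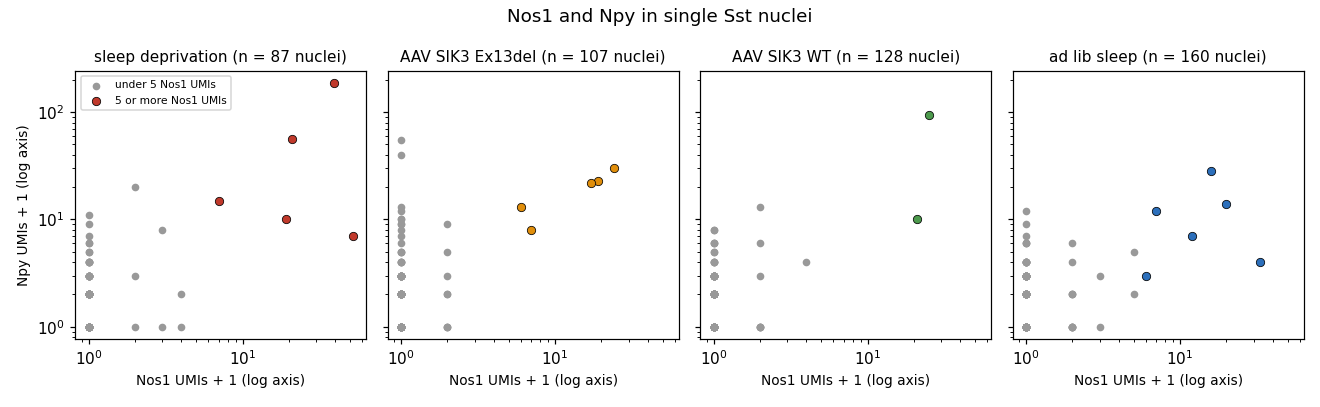
Nos1 against Npy UMIs of each Sst nucleus (UMIs + 1, log axes), 1 panel per library, with nuclei of 5 or more Nos1 UMIs in colour. The coloured nuclei number 5 in sleep deprivation, 5 in Ex13del, 2 in WT and 6 in ad lib sleep, and the nucleus with the most Npy lies among them in all libraries but Ex13del.

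Sleep deprivation against ad lib sleep asks how lost sleep bears on these cells. In the sleep deprivation library 4 of 14 cytosolic chaperone genes and 2 of 8 glucocorticoid-responsive genes were past 1.5-fold higher, 3 of 8 cholesterol synthesis genes were past 1.5-fold lower, and 0 of 30 genes for SIK3's own pathway were past that limit. Npy was 2.23-fold higher, but that excess sat in a few nuclei. Among the 7282 genes whose mean over both libraries reached 20 CPM, 384 were past 1.5-fold higher (5.27%) and 315 past 1.5-fold lower (4.33%) on the log2(CPM + 1) scale, and the median log2 ratio over all of them was 0.02. The log2 ratio was above 0 for 53.3% of these genes, the share to set beside the counts above 0 in the lists. Depth moved with the comparison, at a median of 13892 UMIs per Sst nucleus in sleep deprivation and 8032 in ad lib sleep. Markers of other cells differed too: excitatory markers summed to 574 CPM in sleep deprivation, with all 9 detected, and 441 CPM in ad lib sleep, with Fezf2 at 0. Oligodendrocyte markers summed to 301 CPM in sleep deprivation and 248 CPM in ad lib sleep, with all 8 detected in both. Among the members, 57 of 87 (65.5%) held 1 striatal gene in sleep deprivation and 57 of 160 (35.6%) in ad lib sleep. The part of depth and of these markers in the differences was not tested.

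Among 14 measured chaperone genes, 4 were past 1.5-fold higher and 0 lower, 10 were above 0, and the median log2 ratio was 0.30. Dnaja1, a co-chaperone of the HSP70 machine, was at 158 CPM in sleep deprivation, 112 in Ex13del, 111 in WT and 83.5 in ad lib sleep, so ad lib sleep was the lowest library (ratio 1.89, 1.49 to 2.41). Hspa8, the constitutive HSP70, was at 320 CPM in sleep deprivation, 223 in Ex13del, 217 in WT and 195 in ad lib sleep (ratio 1.64, 1.40 to 1.93). Both were highest in sleep deprivation, with the AAV libraries between. Hsph1, a nucleotide exchange factor for HSP70, was at 58.0 CPM in sleep deprivation, 37.9 in Ex13del, 47.7 in WT and 37.0 in ad lib sleep (ratio 1.57, 1.08 to 2.30). The fourth, Fkbp4, was 1.71-fold higher with an interval that includes 1 (0.98 to 3.04), and Hspa4l was 0.39 lower on the log2 scale. Among nuclei with no Slc17a7 or Sv2b UMI the log2 ratio of 0.71 for Hspa8 was 0.46 and that of 0.63 for Hsph1 was 0.54, both under the 1.5-fold limit, while Dnaja1 stayed past it. The same list had medians of 0.45 in parvalbumin-type, 0.18 in Adarb2-type and 0.29 in excitatory nuclei, so it was not particular to Sst nuclei by this measure.

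Of 8 measured glucocorticoid-responsive genes, 2 were past 1.5-fold higher and 0 lower, 7 were above 0 and the median was 0.31. Fkbp5, a co-chaperone that glucocorticoid receptors induce, was at 58.0 CPM in sleep deprivation, 49.7 in Ex13del, 56.1 in WT and 23.2 in ad lib sleep. Only ad lib sleep was low, and the ratio was 2.50 (1.62 to 3.92) for sleep deprivation and 2.41 (1.57 to 3.78) for WT over that same library. Mt1, a metallothionein, was at 62.2 CPM in sleep deprivation, 64.9 in Ex13del, 43.8 in WT and 34.1 in ad lib sleep (ratio 1.82, 1.25 to 2.69). Its log2 ratio of 0.85 was 0.19 among nuclei with no Slc17a7 or Sv2b UMI. In the other types the list's median was 0.27 in parvalbumin-type, 0.22 in Adarb2-type and 0.08 in excitatory nuclei.

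All 8 measured cholesterol synthesis genes were lower in sleep deprivation than in ad lib sleep, 3 of them past 1.5-fold, with a median log2 ratio of -0.47. Sc5d, a late sterol desaturase, was at 21.0 CPM in sleep deprivation, 22.8 in Ex13del, 27.7 in WT and 36.3 in ad lib sleep (ratio 0.58, 0.34 to 0.95). Fdft1, squalene synthase, was at 24.4 CPM in sleep deprivation, 20.2 in Ex13del, 28.4 in WT and 41.4 in ad lib sleep (ratio 0.59, 0.36 to 0.94). Both were highest in ad lib sleep. Among nuclei with no Slc17a7 or Sv2b UMI the log2 ratio of -0.76 for Sc5d was -0.28, under the limit, and that of -0.74 for Fdft1 was -1.16. The list's median was -0.40 in Adarb2-type and -0.30 in excitatory nuclei, and 0.06 over 4 measured genes in parvalbumin-type nuclei. Of 28 nuclear genes for oxidative phosphorylation, 23 were above 0 with a median of 0.22, though only Atp5g1 was past 1.5-fold (102 CPM in sleep deprivation, 63.2 in ad lib sleep), and its log2 ratio of 0.68 was 0.38 among those nuclei; the same median was 0.13 in parvalbumin-type, -0.05 in Adarb2-type and 0.12 in excitatory nuclei.

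**Figure D4:**
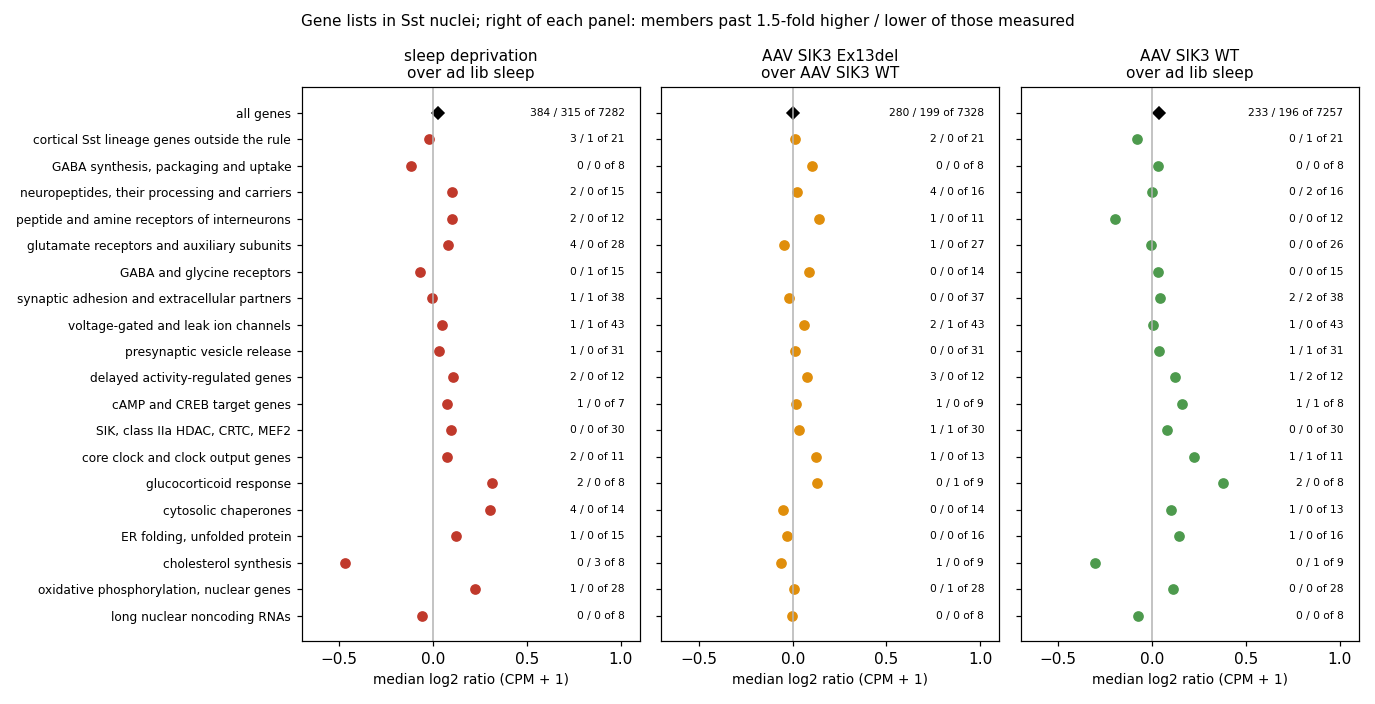
Median log2 ratio of each gene list in Sst nuclei (x axis, CPM + 1) for 3 comparisons, with the median of all genes as a diamond and, at the right of each panel, the members past 1.5-fold higher and lower of those measured. Of the lists drawn, each with 5 or more measured genes in every comparison, cholesterol synthesis lies lowest in sleep deprivation over ad lib sleep (-0.47) and in WT over ad lib sleep (-0.31), 2 comparisons that share the ad lib library.

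The excess of Npy came from few nuclei. Npy (chr6:49822710-49829507, plus strand), a peptide released by several interneuron types, was at 338 CPM in sleep deprivation, 298 in Ex13del, 184 in WT and 152 in ad lib sleep. Of its 402 UMIs in sleep deprivation, 186 came from 1 nucleus (46.3%), and nuclei with 5 or more Nos1 UMIs held 67.2%. The log2 ratio of 1.15 over ad lib sleep was 0.48 without the top nucleus of each library and 0.10 without the nuclei rich in Nos1. In the nuclei without much Nos1, Npy stood at 118 CPM in sleep deprivation, 234 in Ex13del, 108 in WT and 110 in ad lib sleep. Tacr1 likewise had 43 of its 58 sleep deprivation UMIs (74.1%) in 1 nucleus. Crhbp, which binds corticotropin-releasing hormone, was at 75.7 CPM in sleep deprivation, 73.3 in Ex13del, 40.7 in WT and 39.9 in ad lib sleep. Its log2 ratio of 0.91 over ad lib sleep was 0.12 without the deepest 5% of nuclei and -0.14 after thinning. Of 15 measured genes for peptides, their processing and carriers, Npy and Crhbp were past 1.5-fold higher and 0 were lower.

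Genes of the Sst lineage that the rule did not use were mostly level, with 3 of 21 past 1.5-fold higher and 1 lower. Lhx6, the transcription factor of cells from the medial ganglionic eminence, was at 147 CPM in sleep deprivation, 74.2 in Ex13del, 83.0 in WT and 97.3 in ad lib sleep (ratio 1.51, 1.20 to 1.91). Nfib, another transcription factor, was at 60.6 CPM in sleep deprivation, 63.2 in Ex13del, 32.3 in WT and 25.4 in ad lib sleep (ratio 2.38, 1.57 to 3.68). Lhx6 lay just past the limit at a log2 ratio of 0.59, and was under it at 0.55 among nuclei with no Slc17a7 or Sv2b UMI. Erbb4 was at 820 CPM in sleep deprivation, 951 in Ex13del, 755 in WT and 1270 in ad lib sleep, which made ad lib sleep the highest library. Its log2 ratio of -0.63 was -0.23 without the deepest 5% of nuclei. The potassium channel partner Kcnip4 was at 2187 CPM in sleep deprivation, 2874 in Ex13del, 2713 in WT and 3840 in ad lib sleep, again highest in ad lib sleep, and its log2 ratio of -0.81 was -0.37 without the deepest 5%. Both genes were higher in parvalbumin-type nuclei (Kcnip4 at 4882 to 6745 CPM), and parvalbumin marker genes summed to 920 CPM in sleep deprivation, with Cox6a2 at 0, and 884 CPM in ad lib sleep, with all 8 detected; their part in the result was not tested.

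Receptor and channel lists held few large differences. Of 28 glutamate receptor genes, 4 were past 1.5-fold higher and 0 lower. Cacng2, the auxiliary AMPA receptor subunit stargazin, was at 177 CPM in sleep deprivation, 103 in Ex13del, 138 in WT and 110 in ad lib sleep (ratio 1.61, 1.30 to 1.99), highest in sleep deprivation. Cacng4, a relative of Cacng2, was at 37.0 CPM in sleep deprivation, 11.8 in Ex13del, 23.1 in WT and 12.3 in ad lib sleep (ratio 3.0, 1.68 to 5.60). Among nuclei with no Slc17a7 or Sv2b UMI the log2 ratio was 0.72 for Cacng2 and 1.63 for Cacng4. Shisa9 and Syndig1l, also past the limit at log2 ratios of 0.63 each, were under it among those nuclei, at -0.45 and 0.28. Gria1, an AMPA receptor subunit, was at 2453 CPM in sleep deprivation, 1726 in Ex13del, 1835 in WT and 1898 in ad lib sleep (ratio 1.29, 1.23 to 1.36), under the 1.5-fold limit. Of 43 voltage-gated and leak channel genes, only Kcnip4 was past 1.5-fold lower, and of 15 GABA and glycine receptor genes only Gabrd was past the limit, lower at 17.7 CPM in sleep deprivation against 32.0 CPM in ad lib sleep. The 8 genes for GABA synthesis, packaging and uptake had 0 past the limit. Of 30 measured genes for SIK kinases, their upstream kinase LKB1, CRTCs, class IIa histone deacetylases and MEF2 factors, 0 were past 1.5-fold either way, with a median of 0.10.

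Of the 12 highest genes by the rule for named genes, Gm5820 and Fgf1 overlap on opposite strands of chromosome 18, and strand use in counting is not given in the sources used here, so their reads cannot be told apart. Gm5820, a long noncoding RNA, was at 113 CPM in sleep deprivation, 43.8 in Ex13del, 44.6 in WT and 44.3 in ad lib sleep, and Fgf1, a growth factor, was at 593 CPM in sleep deprivation, 391 in Ex13del, 256 in WT and 312 in ad lib sleep. Both were highest in sleep deprivation, with no nucleus holding over 13.1% of Gm5820 or 5.4% of Fgf1 in any library. Plcl1, a phospholipase-like protein that binds GABA-A receptor partners, was at 182 CPM in sleep deprivation, 169 in Ex13del, 130 in WT and 79.2 in ad lib sleep (ratio 2.29, 1.81 to 2.92), lowest in ad lib sleep. The astrocyte glutamate transporter Slc1a2 was at 336 CPM in sleep deprivation, 286 in Ex13del, 224 in WT and 149 in ad lib sleep (ratio 2.26, 1.90 to 2.69). The list of 8 astrocyte markers, to which Slc1a2 belongs, summed to 727 CPM in sleep deprivation and 513 CPM in ad lib sleep. All 8 were detected in both. Most of that difference was Slc1a2 itself, and the part of astrocyte RNA was not tested. The growth hormone receptor Ghr, at 109 CPM in sleep deprivation against 53.7 CPM in ad lib sleep, and the phosphatase Ptprz1, at 167 CPM in sleep deprivation against 76.3 CPM in ad lib sleep, were also among the highest, as were Hs3st4, Gm38251 and Selenow. The lowest 12 were led by Gm45904 (43.7 CPM in sleep deprivation, 93.0 in ad lib sleep) and Col11a1, a fibrillar collagen (84.9 CPM in sleep deprivation, 182 in Ex13del, 140 in WT and 176 in ad lib sleep; ratio 0.481, 0.378 to 0.609). Of those 12, 8 were annotated as other than protein coding, most of them antisense to a gene, and carry the same limit of strand.

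SIK3(Ex13del) against SIK3(WT) compares a mutant with its wild-type control, both delivered by virus. In the Ex13del library the immediate early genes Egr1 and Junb, the peptide genes Npy, Crhbp and Vgf, and Nfib were higher in Sst nuclei, and genes of the SIK3 pathway were mostly level. Vgf was low in the WT library alone. Of 7328 measured genes, 280 were past 1.5-fold higher (3.82%) and 199 lower (2.72%), with a median log2 ratio of -0.00022 and 49.8% above 0. Depth was alike, at a median of 10216 UMIs in Ex13del and 10270 in WT.

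Only 4 of 22 immediate early genes reached 20 CPM, and all 4 were above 0, with a median of 0.52. Without the deepest 5% of nuclei 3 were measured and the median was 0.0049, with Egr1 at 1.04. Egr1, an activity-induced transcription factor, was at 52.3 CPM in Ex13del, against 25.4 in WT, with 15.1 in sleep deprivation and 26.1 in ad lib sleep (ratio 2.06, 1.33 to 3.25). It was spread over 40 of 107 nuclei in Ex13del and 24 of 128 in WT, with no more than 15.2% of its UMIs in 1 nucleus. Junb, also activity-induced, was at 27.0 CPM in Ex13del and 13.8 in WT (ratio 1.95, 1.06 to 3.69), with 10.9 in sleep deprivation and 17.4 in ad lib sleep. Both were highest in Ex13del and lowest in sleep deprivation, but after thinning the log2 ratio of Junb in sleep deprivation over ad lib sleep was 0.64, against -0.63 unthinned. Jund and Nr4a1 differed by 0.13 and 0.02 on the log2 scale. In parvalbumin-type nuclei the same list had 2 measured genes with a median of -0.06, and in excitatory nuclei 7 with a median of 0.12. Of 12 measured delayed activity-regulated genes, 3 were past 1.5-fold higher (Tiparp, Vgf and Sorcs3) and 0 lower, though the log2 ratio of 0.59 for Sorcs3 was -0.067 among nuclei with no Slc17a7 or Sv2b UMI and 0.31 without the deepest 5%.

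Of 16 measured peptide genes, 4 were past 1.5-fold higher in Ex13del and 0 lower, while the list's median was 0.03. Npy was 1.62-fold higher (1.37 to 1.91), and its log2 ratio of 0.69 was 1.11 without the nuclei rich in Nos1, which held 25.7% of Npy UMIs in Ex13del and 42.5% in WT. Crhbp was 1.80-fold higher (1.26 to 2.58). Nfib, named above, had a log2 ratio of 0.95 that was 0.48 among nuclei with no Slc17a7 or Sv2b UMI. Vgf, a granin-like peptide precursor, was at 99.2 CPM in sleep deprivation, 88.5 in Ex13del, 46.9 in WT and 94.4 in ad lib sleep, so WT alone was low (ratio 1.89, 1.36 to 2.63), and its log2 ratio of 0.90 was 0.27 after thinning. Cadps2, which primes dense-core vesicles, was at 39.5 CPM in sleep deprivation, 33.7 in Ex13del, 17.7 in WT and 30.5 in ad lib sleep, again lowest in WT, though its log2 ratio of 0.89 was 0.29 without the deepest 5% of nuclei. The muscarinic receptor Chrm2 was 1.56-fold higher in Ex13del, and its log2 ratio of 0.63 was 0.07 without the nuclei rich in Nos1.

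Of 30 SIK3 pathway genes, Brsk2, a related kinase, was past 1.5-fold higher (75.0 CPM in Ex13del, 47.7 in WT) and Strada, an LKB1 partner, past 1.5-fold lower (34.6 CPM in Ex13del, 57.7 in WT). The log2 ratio of -0.72 for Strada was -0.36 among nuclei with no Slc17a7 or Sv2b UMI. Of 9 glucocorticoid-responsive genes, only Nr3c2, the mineralocorticoid receptor, was past the limit, lower at 105 CPM in Ex13del against 181 in WT (ratio 0.579, 0.462 to 0.722), with a log2 ratio of -0.78 that was -0.55 among nuclei with no vector UMI. Of 28 oxidative phosphorylation genes 1 was lower, Cycs (13.5 CPM in Ex13del, 33.8 in WT). Chaperones (0 past the limit of 14) and cholesterol synthesis genes (1 higher of 9, Msmo1, whose interval of 0.93 to 2.88 includes 1) had medians of -0.05 and -0.06.

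The highest gene was Tafa1 (chr6:96113154-96657198, plus strand), a secreted chemokine-like protein, at 119 CPM in Ex13del against 24.6 CPM in WT, with 28.6 in sleep deprivation and 16.7 in ad lib sleep. It rested on few nuclei: 18 of 107 had a UMI in Ex13del, and the top nucleus held 56 of 141 UMIs (39.7%). Among nuclei with no Slc17a7 or Sv2b UMI the log2 ratio of 2.23 was -0.51, and excitatory nuclei held 797 to 1279 CPM of Tafa1. Hs3st4, a heparan sulfate sulfotransferase, was at 75.9 CPM in Ex13del and 28.4 in WT, and its log2 ratio of 1.38 was -0.96 among those nuclei. Summed excitatory markers stood at 461 CPM in Ex13del and 447 CPM in WT, with all 9 detected in both; their part in these genes was not tested. Gm19951, a long noncoding RNA, was at 79.2 CPM in Ex13del and 29.2 in WT, with 26.9 in sleep deprivation and 28.3 in ad lib sleep, and was spread over 56 nuclei of Ex13del with at most 5.3% in 1 nucleus. Gpc5, an astrocyte-enriched proteoglycan, was at 477 CPM in Ex13del and 225 in WT. The astrocyte marker sum, Gpc5 included, was 819 CPM in Ex13del and 493 CPM in WT, with all 8 genes detected. Most of that difference was Gpc5 itself, and the part of astrocyte RNA was not tested. Ankfn1 was the lowest, at 37.9 CPM in Ex13del and 83.0 in WT (ratio 0.457, 0.315 to 0.653).

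**Figure D5:**
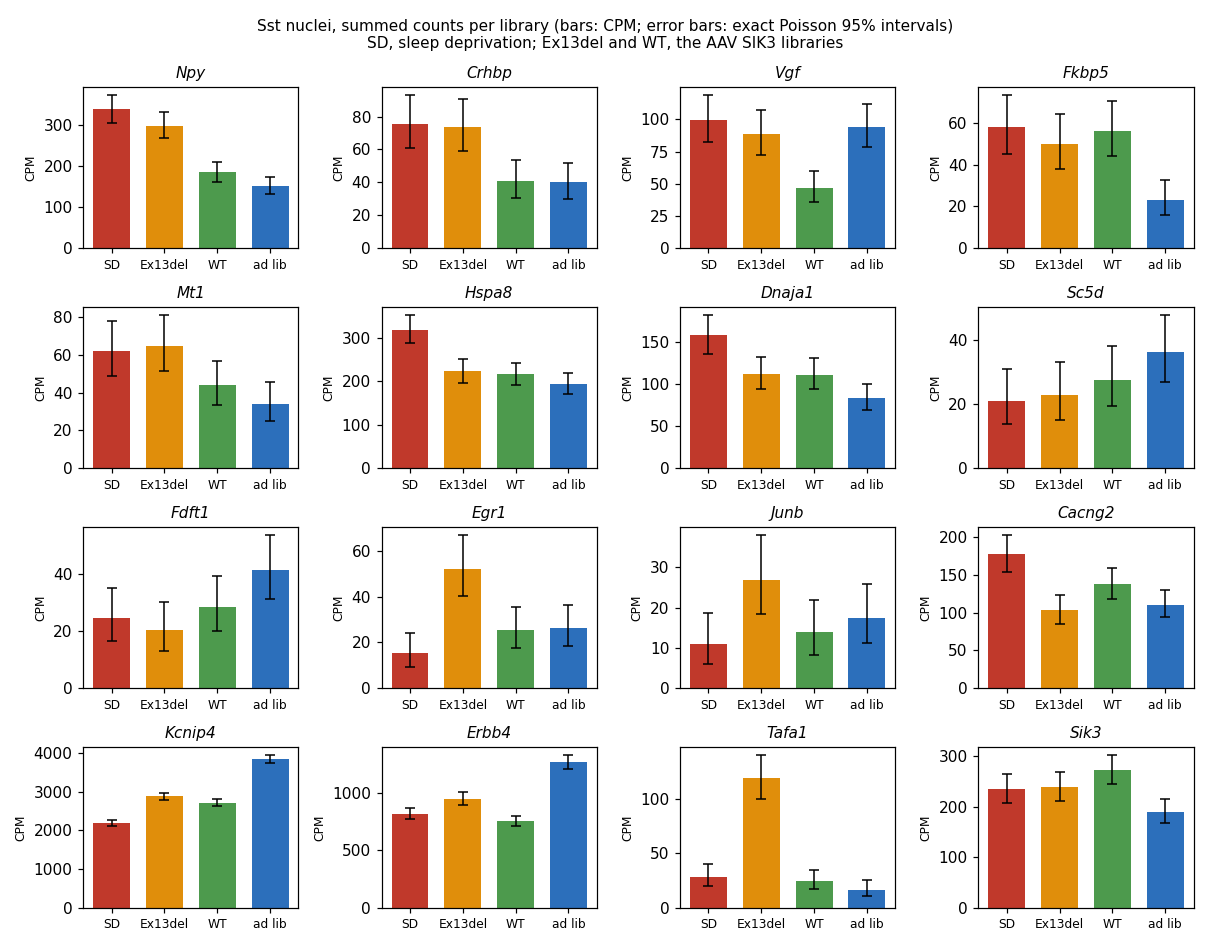
CPM of 16 genes in the summed Sst nuclei of each library, with exact Poisson 95% intervals as error bars (SD, sleep deprivation). Fkbp5 is low in ad lib sleep alone (23.2 CPM), Vgf in WT alone (46.9 CPM), and Egr1 is high in Ex13del (52.3 CPM).

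WT against ad lib sleep holds surgery, virus and SIK3 together, and shares its ad lib library with the sleep deprivation comparison, so values low or high in ad lib sleep return in both. Of 7257 measured genes, 233 were past 1.5-fold higher in WT (3.21%) and 196 lower (2.7%), with a median log2 ratio of 0.03 and 55.0% above 0. Myelin genes were higher: Mobp was at 78.4 CPM in WT, against 25.4 in ad lib sleep, with 61.5 in Ex13del and 42.0 in sleep deprivation (ratio 3.08, 2.08 to 4.67). Mbp, a myelin protein gene, was at 124 CPM in WT and 64.6 in ad lib sleep. Oligodendrocyte markers, both genes included, summed to 413 CPM in WT and 248 CPM in ad lib sleep, with all 8 detected in both. Most of that difference was in Mobp and Mbp. Among nuclei with no Slc17a7 or Sv2b UMI the log2 ratio was 0.13 for Mobp and 0.25 for Mbp. The part of oligodendrocyte RNA was not tested.

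Among the lists, 2 of 8 glucocorticoid-responsive genes were past 1.5-fold higher in WT, Fkbp5 and the receptor Nr3c1 (108 CPM in WT, 66.8 in ad lib sleep), 7 were above 0 and the median was 0.38. Of 9 cholesterol synthesis genes 1 was above 0 and 1, Msmo1, was past 1.5-fold lower, with an interval of 0.34 to 1.01 that includes 1 and a list median of -0.31. The peptide genes Vgf (ratio 0.497, 0.36 to 0.678) and Cadps2 (0.58, 0.333 to 0.986) were lower of 16 measured, and 0 were higher. For Cadps2 the log2 ratio of -0.75 was -0.15 without the deepest 5% of nuclei. Nos1 had a ratio of 0.52 (0.368 to 0.726), at 41.5 CPM in WT and 79.9 in ad lib sleep, and nuclei with 5 or more Nos1 UMIs held 44 of 54 UMIs in WT and 88 of 110 in ad lib sleep. Its log2 ratio of -0.93 was -0.33 among nuclei with no Slc17a7 or Sv2b UMI. Erbb4 had a ratio of 0.594 (0.549 to 0.643), and its log2 ratio of -0.75 was -0.28 without the deepest 5% of nuclei. Of the 12 measured peptide and amine receptor genes 0 were past the limit, though 9 were below 0, with a median of -0.20. AC149090.1 had the lowest ratio of the named genes (155 CPM in WT, 240 in Ex13del, 549 in sleep deprivation and 431 in ad lib sleep), and the zinc finger gene Zfp804b followed at 53.8 CPM in WT and 137 in ad lib sleep, from 10 nuclei in WT and 21 in ad lib sleep.

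Sik3 (chr9:46012820-46224194, plus strand) was at 235 CPM in sleep deprivation, 239 in Ex13del, 272 in WT and 190 in ad lib sleep. Ad lib sleep was lowest, with a ratio of 1.43 (1.22 to 1.68) for WT over ad lib sleep, 0.877 (0.747 to 1.03) for Ex13del over WT and 1.23 (1.04 to 1.47) for sleep deprivation over ad lib sleep. These are counts per whole gene, so they do not check the loss of exon 13. The vector feature WPRE_pA, which by its name covers the end of the vector transcript, checks the AAV labels: it had 0 UMIs in Sst nuclei of sleep deprivation, where 3 counts would be 2.52 CPM, and 0 in ad lib sleep (2.18 CPM). In Ex13del it had 37 UMIs, or 31.2 CPM (22.0 to 43.0), and in WT 370 UMIs, or 284 CPM (256 to 315). The share of Sst nuclei with a vector UMI was alike, 23 of 107 (21.5%) in Ex13del and 28 of 128 (21.9%) in WT. In WT, 2 nuclei with 278 and 35 UMIs held 313 of the 370. With 3 or more vector UMIs there were 5 nuclei in Ex13del (4.67%) and 9 in WT (7.03%). Nuclei with astrocyte genes, where the synapsin promoter should be silent, had a vector UMI too. It was found in 17.9% of 56 in Ex13del (8.91 to 30.4) and 33.3% of 33 in WT (18.0 to 51.8). Their median depths were 3900 and 3844 UMIs, and 1 in Ex13del and 0 in WT had 3 or more vector UMIs. A single vector UMI therefore does not mark a nucleus as infected. How much of the share in Sst nuclei is background was not tested. Among Sst nuclei with no vector UMI the log2 ratio of Ex13del over WT was 1.05 for Egr1, 1.17 for Vgf and 1.12 for Npy. It was 0.92 for Junb, 0.73 for Crhbp and 0.82 for Nfib. Other ratios were much smaller in those nuclei: 2.23 for Tafa1 became 0.69, and 0.85 for Cacna2d1 became 0.041.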

How the data were processed

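The authors deposited 1 filtered matrix of UMI counts per gene and nucleus for each of 4 libraries, made with a 3′ droplet kit per the labels' protocols. The submitters' processing notes name Cell Ranger 6.1.2 and the build mm10. The deposited counts were raw, and no annotation of nuclei was used. All mapped columns were used. The members, lists and rule for named genes were chosen with earlier results of these data known.

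Counts were summed over the Sst nuclei of each library and scaled to CPM. Ratios are log2(CPM + 1), called past 1.5-fold where the mean of both libraries reached 20 CPM. Ratio intervals are exact conditional Poisson, level intervals exact Poisson and share intervals exact binomial (Clopper-Pearson). Nothing says that nuclei of a library came from separate animals, and no test was run. Named genes were the rule's 19 genes, Sik3 and the vector, the 12 highest and 12 lowest ratios per comparison (mean of 50 CPM, 100 UMIs), list members past 1.5-fold or of highest level, subtype markers, and the 10 genes most like Sst. Chgb, Pcsk1, Fkbp4, Hspa4l, Msmo1, Arc and Bdnf fall outside this rule and were chosen after their values were seen. Some single genes are not reported here. No doublet caller was run; leaving out the deepest 5% of Sst nuclei stands in for it. Coordinates are 1-based on mm10, from GENCODE matched by gene identifier for 32235 of 32286 features. The interval code was tested on simulated data. Python 3.11.15, NumPy 2.4.6, SciPy 1.17.1, pandas 2.3.3 and, for TMM factors, R 4.3.3 with edgeR 4.0.16 were used.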

Additional observations from a re-analysis of the deposited data

Results flagged for a closer look

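These genes differed past 1.5-fold in opposite directions in Sst nuclei and in another GABAergic type of the same libraries, each with a counting interval that leaves out 1; with 1 library per group the difference between types was not tested. In sleep deprivation over ad lib sleep, the log2 ratio in Sst nuclei and in parvalbumin-type nuclei was 1.01 and -1.15 for Ghr, 1.12 and -0.77 for Hs3st4, 0.81 and -0.83 for Pde4b, a cAMP phosphodiesterase, and 2.06 and -1.35 for the nuclear receptor Rorb, an excitatory marker of layer 4 with 36.2% of its sleep deprivation UMIs in 1 Sst nucleus. In Ex13del over WT, the log2 ratio in Sst nuclei and in parvalbumin-type nuclei was 0.98 and -1.21 for Arpp21, 0.85 and -1.12 for the calcium channel subunit Cacna2d1, 1.09 and -2.80 for Gm20713, 1.08 and -1.18 for Gpc5, 0.66 and -0.62 for the semaphorin Sema3e, and 2.23 and -2.36 for Tafa1. Among nuclei with no Slc17a7 or Sv2b UMI, the log2 ratio of Ex13del over WT in Sst nuclei was 0.47 for Arpp21, 0.17 for Cacna2d1, 0.34 for Sema3e and -0.51 for Tafa1. In the same comparison it was 0.97 in Sst nuclei and -0.72 in Adarb2-type nuclei for 4921534H16Rik, and 0.63 and -1.02 for Chrm2. In WT over ad lib sleep it was -0.78 in Sst nuclei and 0.64 in parvalbumin-type nuclei for the phosphatase Ptprk (-0.31 in Sst nuclei without the deepest 5%), and 0.93 in Sst nuclei and -0.92 in Adarb2-type nuclei for Mbp.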

How the results depend on the processing

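Results were recomputed under 17 alternative settings, 2 of them chosen after seeing the data (leaving out, for each gene, the nucleus with its most UMIs, and leaving out nuclei with 5 or more Nos1 UMIs). Of the gene list medians, 897 stayed and 152 moved by over 0.1. A change of sign was counted only for lists with a median of 0.2 or more in size and 5 or more measured genes, of which 0 reversed, while smaller ones did change sign: the median of rapid immediate early genes in sleep deprivation over ad lib sleep, -0.27, reached 0.48, and that of peptide and amine receptors in Ex13del over WT, 0.14, reached -0.22; of values for single named genes, 9337 stayed, 538 moved and 15 reversed. No paired analysis was possible because each group has 1 library, and no library could be left out.

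As a share of GABAergic nuclei, Sst nuclei were 21.8% in sleep deprivation under 1% mitochondrial UMIs and 15.7% in ad lib sleep with Grin3a and Sst at 5 UMIs or more. With 0 UMIs of Slc17a7 and Sv2b the share was 9.73% in sleep deprivation, 11.1% in Ex13del, 8.58% in WT and 11.2% in ad lib sleep. Counts of genes past 1.5-fold, higher and lower, were then 611 and 552 for sleep deprivation over ad lib sleep, 585 and 611 for Ex13del over WT, and 550 and 466 for WT over ad lib sleep. Thinning to 3000 UMIs per nucleus gave 1009 and 934, 908 and 856, and 878 and 684 in the same order of comparisons. A floor of 50 CPM gave 103 and 69, 54 and 23, and 47 and 40, and a floor of 5 CPM gave 1174 and 1048, 1056 and 896, and 936 and 932. For Ex13del over WT, genes lower numbered 305 with the mean over nuclei and 126 with a pseudocount of 5 CPM. Shares of Sst nuclei with 3 or more vector UMIs were 4.67% in Ex13del and 7.03% in WT.

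Reversed log2 ratios with 0 UMIs of Slc17a7 and Sv2b were -0.062 for Nos1, 0.033 for Pard3b and -0.45 for Shisa9 in sleep deprivation over ad lib sleep, -0.96 for Hs3st4 and -0.067 for Sorcs3 in Ex13del over WT, and 0.37 for Nxph2 and -0.047 for Slc1a2 in WT over ad lib sleep. Reversed ratios after thinning were -0.14 for Crhbp, 0.64 for Junb and -0.046 for Mobp in sleep deprivation over ad lib sleep, -0.012 for Cacna2d1, 0.0012 for Cep112, -0.13 for Hpse and 0.17 for Strada in Ex13del over WT, and 0.14 for Nipsnap1 in WT over ad lib sleep. The cause was not tested, beyond the fewer nuclei or UMIs these settings leave.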

Other observations

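Some activity-induced genes lay under the 20 CPM floor in Sst nuclei and are named here after their values were seen. Arc, a synaptic plasticity gene, had 20 UMIs in sleep deprivation (16.8 CPM), 17 in Ex13del (14.3 CPM), 7 in WT (5.38 CPM) and 4 in ad lib sleep (2.91 CPM). It was spread over 17 nuclei in sleep deprivation and 4 in ad lib sleep, and the ratios were 5.79 (1.94 to 23.3) for sleep deprivation over ad lib sleep and 2.66 (1.05 to 7.60) for Ex13del over WT. Bdnf, a neurotrophin that interneurons hardly express, had 8 UMIs in sleep deprivation, 20 in Ex13del, 4 in WT and 3 in ad lib sleep. Egr1 and Junb were lower in sleep deprivation before thinning, at 15.1 CPM for Egr1 in sleep deprivation against 26.1 CPM in ad lib sleep and 10.9 CPM for Junb in sleep deprivation against 17.4 CPM in ad lib sleep, with counting intervals of the ratio (0.31 to 1.05 for Egr1, 0.293 to 1.28 for Junb) that include 1; after thinning, the log2 ratio of Junb was 0.64.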
